A study of Mus musculus
Rattus norvegicus and Mus musculus and Rattus norvegicus with 95 samples.

Results

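Mitochondrial ribosomal protein genes were taken as all gene symbols made of Mrpl or Mrps and a number, present in both expression tables of a study of mouse-rat allodiploid embryonic stem cells (AdESCs). The rule found 65 of 13926 genes. By the structural names of the ribosome, 42 of them code for proteins of the large subunit and 22 for proteins of the small subunit. The last, Mrps36, is named as a ribosomal protein but is known as a subunit of the 2-oxoglutarate dehydrogenase complex (KGD4). The set is not complete: 11 further symbols of the family were not analysed here, namely Mrpl15, Mrpl28, Mrpl33, Mrpl39, Mrpl41, Mrpl43, Mrpl52, Mrps6, Mrps22, Mrps27 and Mrps28.

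The mitochondrial ribosome translates the few messenger RNAs that mitochondrial DNA encodes, all of them for core subunits of the respiratory chain and ATP synthase. Its RNA is made inside the mitochondrion, whereas every one of its proteins is encoded in the nucleus, translated in the cytosol and imported. Part of the proteins descend from those of bacterial ribosomes, and the others exist only in mitochondria. In mammals the family is expressed in all tissues, and its products are needed for respiration.

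RNA was sequenced in 8 bulk libraries of stem cells in G0/G1, each from 1 line: AdESC lines RM1-1, RM2-1, MR1-1 and MR2-1, rat ESC lines DA25 and DA53, and mouse ESC lines F145 and F146. An AdESC holds a haploid rat and a haploid mouse genome in 1 nucleus; the labels mark RM and MR lines without saying what the letters stand for, and name no other allele or treatment. A second set held 87 single cells in 11 samples, each made up of the cells that 1 AdESC line gave in 1 type. The 63 differentiated cells were MR1-1 fibroblasts (10), RM1-1 neurons (8) and RM1-1 testis cells (4) from mouse chimaeras, RM2-1 lung (4) and testis cells (20) from a rat chimaera, and cells of embryoid bodies (EBs, aggregates in which stem cells differentiate) of MR2-1 (12) and RM1-1 (5). They were set against 24 AdESCs of MR1-1 (6), MR2-1 (8), RM1-1 (4) and RM2-1 (6). Ages are not labelled, each line is 1 replicate, and nothing says whether libraries were made on separate days, so the p-values reflect spread among these samples alone, which may be technical.

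All values are FPKM, fragments scaled to transcript length and library size. Levels of different genes can therefore be compared, but read depth is unknown and no counting error can be given. The files do not state how the mouse and rat readings of a gene were joined into 1 AdESC value, and every AdESC level rests on that step. Markers were checked against the labels. In bulk, fibroblast markers summed to 110 to 217 FPKM in the AdESC lines, 0.788 and 2.00 FPKM in rat DA53 and DA25, and 2256 and 285 FPKM in mouse F145 and F146. None of the 5 measured lung epithelium markers reached 1 FPKM in the sample labelled lung. At that level it held 3 of 3 myoid and smooth muscle markers (2464 FPKM summed) and 5 of 7 fibroblast markers (979 FPKM). It also held 3 of 4 Leydig markers (1135 FPKM, Cyp17a1 at 0). Among these Cyp11a1, the steroidogenic side-chain cleavage enzyme, averaged 1028 FPKM, with 2 of the 4 cells at 1 FPKM or more. The sample labelled RM1-1 testis held 1 of 4 Sertoli markers (2.04 FPKM summed, Amh at 0), 1 of 4 Leydig markers (6.71 FPKM, Cyp17a1 at 0) and 3 of 4 glial markers (14.35 FPKM) at 1 FPKM or more. RM1-1 neurons also held 3 of 4 glial markers (50.99 FPKM), and AdESC samples held at most 1. Neuronal markers at that level were 4 of 6 in RM1-1 testis (149.6 FPKM summed), 5 of 6 in RM1-1 neurons (305 FPKM) and 3 of 6 in each AdESC sample (76.2 to 122 FPKM). RM2-1 testis held 3 of 3 myoid and smooth muscle markers (4150 FPKM summed) and 7 of 7 fibroblast markers (1734 FPKM). Of Sertoli markers it held 2 of 4 (17.8 FPKM, Amh at 0), and of Leydig markers 1 of 4 (18.1 FPKM, Cyp17a1 at 0).

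The family was expressed in every library at a moderate and rather even level. The median member lay at 30.03 to 37.5 FPKM in the 4 AdESC lines, 39.8 and 43.4 FPKM in rat DA25 and DA53, and 25.8 and 42.2 FPKM in mouse F145 and F146. Together the members took 0.650% to 0.769% of the summed FPKM in AdESC lines, 0.783% and 0.857% in the rat lines, and 0.641% and 0.906% in the mouse lines. Within a library the upper quartile of members was 1.63 to 2.33 times the lower one, as the plot of members by library shows.

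**Figure D1:**
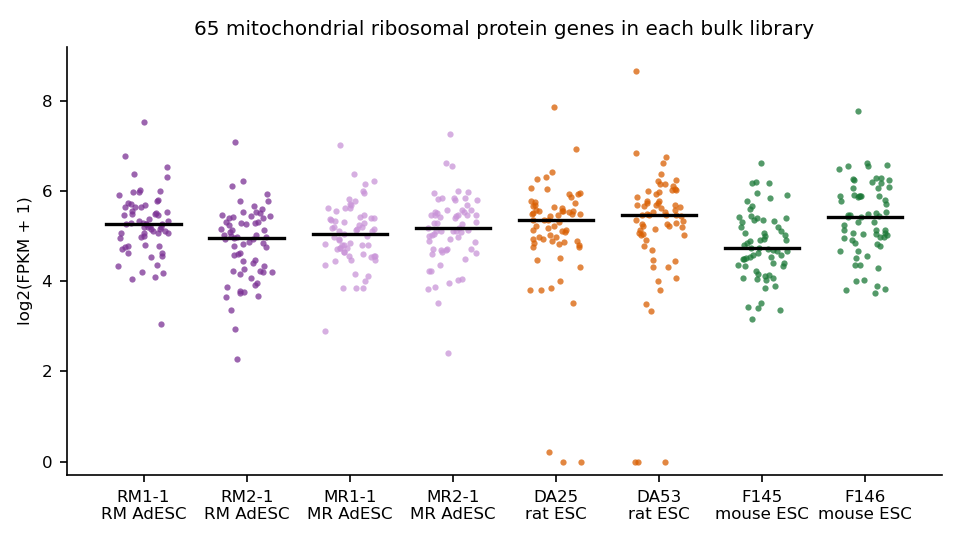
Each point is 1 of the 65 members in 1 bulk library, on a scale of log2(FPKM + 1), and black bars are medians over members. F145 has the lowest median (25.8 FPKM) and DA53 the highest (43.4 FPKM), and the points at or near 0 in the rat lines are Mrpl30, Mrpl36 and Mrpl1.

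The order of the levels was led by Mrpl42, a large-subunit protein found only in mitochondria, with a mean of 194 FPKM over the 8 libraries. Its values were 183, 135, 129 and 152 FPKM in RM1-1, RM2-1, MR1-1 and MR2-1, against 234 and 405 FPKM in rat DA25 and DA53 and 97.2 and 218 FPKM in mouse F145 and F146. Both rat lines were above every other line, but the difference from mouse did not pass the threshold (log2 difference 1.07 ± 0.40 (SE), limma adjusted p = 0.0742). Next came Mrps18b at 91.8 FPKM, Mrpl12 at 85.8, Mrpl20 at 65.04 and Mrps21 at 62.99 FPKM. Mrpl12, the stalk protein that recruits translation factors and also binds the mitochondrial RNA polymerase, ran from 50.2 FPKM in RM2-1 to 114 FPKM in DA53. Among neighbours in the order over all 65 members, Mrpl42 was above Mrps18b, Mrpl12 above Mrpl20 and Mrpl50 above Mrpl1 in all 8 libraries. No other pair of neighbours kept its order in all 8. The lowest means belonged to Mrpl1 (5.67 FPKM), which forms the L1 stalk, followed by Mrpl50 (12.9), Mrpl36 (14.6), Mrps14 (16.5) and Mrpl14 (17.3 FPKM).

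A trio of paralogues descends from bacterial protein S18, and only Mrps18c takes its place in the small subunit of the ribosome. Mrps18b sits elsewhere in the small subunit (mS40) and Mrps18a in the large subunit (mL66). In AdESC lines they averaged 45.5 ± 10.5 FPKM (Mrps18c), 85.1 ± 13.1 FPKM (Mrps18b) and 50.7 ± 5.86 FPKM (Mrps18a; SD, n = 4 lines each). Mrps30, named for the small subunit but found in the large one (mL65), averaged 26.3 ± 5.21 FPKM in AdESC lines, 42.4 ± 11.8 FPKM in rat lines and 36.8 ± 10.3 FPKM in mouse lines (SD). Mrps36 averaged 25.02 ± 5.21, 31.5 ± 7.16 and 32.7 ± 15.2 FPKM in AdESC, rat and mouse lines. Neither gene differed past the threshold in any bulk comparison.

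The first comparison set AdESCs against mouse ESCs. Of the 65 members 2 rose in AdESCs, Mrpl17 and Mrps25, and none fell. This is 3.08% of the members higher, beside 2.71% of the 8794 genes tested higher and 1.18% lower, so the members' share is near that of all genes. The median log2 difference was -0.03 over members and -0.01 over all genes, with 32 members positive and 33 negative.

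Mrpl17, a bacterial-type protein of the large subunit (mouse chromosome 7, 105803206 to 105811099, minus strand, GRCm38), had 61.97, 30.5, 48.2 and 41.9 FPKM in RM1-1, RM2-1, MR1-1 and MR2-1. Mouse F145 and F146 had 15.9 and 13.8 FPKM. All AdESC lines lay above both mouse lines (log2 difference 1.52 ± 0.29 (SE), limma adjusted p = 0.0225). Mrps25, a small-subunit protein found only in mitochondria (mouse chromosome 6, 92169525 to 92184033, minus strand), had 36.1, 31.2, 34.8 and 25.1 FPKM in the same AdESC lines. In F145 and F146 it had 10.5 and 13.0 FPKM, and again the groups did not overlap (log2 difference 1.36 ± 0.27, limma adjusted p = 0.0284). Groups did not overlap for 16 members in this comparison. In the mouse annotation 69.8% of the exon bases of Mrps25 are shared with Nr2c2 on the other strand, and whether fragments were assigned by strand is not stated.

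Both calls are near the threshold. None was left without F145 or without F146, and 1 was left without DA25, DA53, MR2-1 or RM1-1. With RM and MR as separate groups none was left (adjusted p = 0.0511 for Mrpl17 and 0.0606 for Mrps25).

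The mouse lines also differed from each other across the family. F146 was above F145 in 58 of 65 members, with a median log2 difference of 0.57 against 0.15 over all genes. The members' median difference between AdESCs and mouse ESCs was -0.42 without F145 and 0.24 without F146, so its sign is not fixed by these lines. F145 is the line with 2256 FPKM of fibroblast markers, and their part in its lower members was not tested. In bulk RNA, fewer cells of a type and less RNA per cell cannot be told apart.

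Against rat ESCs, AdESCs had 4 members higher (Mrpl1, Mrpl30, Mrpl36 and Mrpl40) and 2 lower (Mrpl11 and Mrpl19). Over all genes 5.79% were higher and 3.91% lower, so 6.15% and 3.08% of members called are near the background. The median log2 difference was -0.33 over members and -0.11 over all genes, with 48 members negative. This comparison uses the same AdESC libraries as the one with mouse, and its values stand beside those as a description.

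Mrpl30 and Mrpl36, both bacterial-type proteins of the large subunit, were listed at 0 in both rat lines. Mrpl30 (mouse chromosome 1, 37890477 to 37898535, plus strand) had 40.9, 39.1, 21.2 and 33.5 FPKM in RM1-1, RM2-1, MR1-1 and MR2-1, against 49.7 and 97.9 FPKM in F145 and F146. Mrpl36, one of the smallest proteins of the ribosome, had 22.1, 9.29, 13.5 and 17.7 FPKM in the AdESC lines, against 26.8 and 27.4 FPKM in the mouse lines. Mrpl1 had 7.23, 3.84, 6.47 and 4.32 FPKM in the AdESC lines, 0.157 and 0 FPKM in DA25 and DA53, and 7.97 and 15.4 FPKM in F145 and F146. For all 3 genes every AdESC line lay between the rat and the mouse lines. Their AdESC means were 0.457 (Mrpl30), 0.577 (Mrpl36) and 0.468 (Mrpl1) of the mouse mean. No fold against the rat lines is given for them, since a listed 0 may be a failed estimate.

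Mrpl40, a large-subunit protein found only in mitochondria, had 25.9, 17.6, 22.7 and 30.6 FPKM in RM1-1, RM2-1, MR1-1 and MR2-1, against 10.5 and 9.14 FPKM in DA25 and DA53 (log2 difference 1.20 ± 0.30, limma adjusted p = 0.0352). Mrpl11, at the base of the stalk where translation factors bind, had 17.2, 12.9, 16.2 and 15.6 FPKM in the AdESC lines and 39.8 and 31.6 FPKM in the rat lines (log2 difference -1.15 ± 0.27, adjusted p = 0.0264). Mrpl19 had 17.5, 12.5, 16.8 and 13.6 FPKM in the AdESC lines and 29.6 and 32.3 FPKM in the rat lines (log2 difference -0.998 ± 0.25, adjusted p = 0.0367). None of these 3 members had overlapping groups. In this comparison the groups did not overlap for 33 members, so this does not set the 3 apart. In the mouse annotation Mrpl19 shares exon bases with Gcfc2 on the other strand.

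The calls for Mrpl40, Mrpl11 and Mrpl19 were lost without DA25, without DA53 or without MR2-1, which left 3 calls each, and with RM and MR as separate groups, which also left 3. Without RM1-1 those for Mrpl40 and Mrpl19 were lost, and without RM2-1 those for Mrpl11 and Mrpl19, at adjusted p of up to 0.284 (Mrpl40), 0.256 (Mrpl11) and 0.315 (Mrpl19). Scaling the libraries to a common upper quartile moved the median of all genes in this comparison from -0.11 to 0.20 and that of members to 0.00, with 6 members higher and none lower; the members' median stood 0.22 below that of all genes as deposited and 0.20 below it after scaling.

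Between rat and mouse ESCs the family differed more: 9 members were higher in rat lines and 6 lower. Over all genes tested 14.1% were higher and 12.6% lower, and the members' 13.8% and 9.23% are not above that. The median log2 difference was 0.43 over members and 0.08 over all genes, and 42 members were positive. The processing notes name a genome build for each species (mm10 and rn5). A difference in expression and one between the reference genomes or their annotations cannot be told apart here. By subunit, 8 of the 9 higher members and all 6 lower ones were of the large subunit, which holds 42 of the 65 members; Mrps25 was the small-subunit member called.

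Mrpl17 averaged 79.9 ± 6.90 FPKM in rat lines and 14.9 ± 1.53 FPKM in mouse lines (log2 difference 2.35 ± 0.33, limma adjusted p = 0.000831). Mrps25 averaged 49.6 ± 15.5 FPKM in rat lines and 11.7 ± 1.79 FPKM in mouse lines (1.96 ± 0.32, adjusted p = 0.00168). Both are the members that were also higher in AdESCs than in mouse ESCs, and in both all 4 AdESC lines lay between the parental species. The other members higher in rat lines were Mrpl11 (log2 difference 1.51), Mrpl19 (1.42), Mrpl55 (1.22), Mrpl44 (1.06), Mrpl54 (1.04), Mrpl9 (0.95) and Mrps18a (0.87).

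Among the 6 lower members, Mrpl40 averaged 9.80 ± 0.932 FPKM in rat lines and 52.3 ± 19.4 FPKM in mouse lines (-2.26 ± 0.35, limma adjusted p = 0.00139). Mrpl24 (-1.46) and Mrpl51 (-1.03) were lower to a smaller degree, and the last 3 were Mrpl30, Mrpl36 and Mrpl1, described above. The call for Mrpl24 was lost without F146 or DA53, that for Mrpl55 without F145, DA25 or DA53, that for Mrpl11 without DA25 and that for Mrpl19 without DA53, with adjusted p of up to 0.202, 0.122, 0.0696 and 0.0632. In all, 9 members were called without DA25 and 7 without DA53.

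Without F145, 4 members were higher and 8 lower, with a median of -0.00; without F146, 12 were higher and 4 lower, with a median of 0.66. With upper-quartile scaling the median of all genes in this comparison moved to -0.19, that of members to 0.14, and the calls to 6 higher and 12 lower, so the balance of higher and lower members turns with the scaling. Relative to all genes the members' median was 0.35 higher as deposited and 0.33 higher after scaling.

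**Figure D2:**
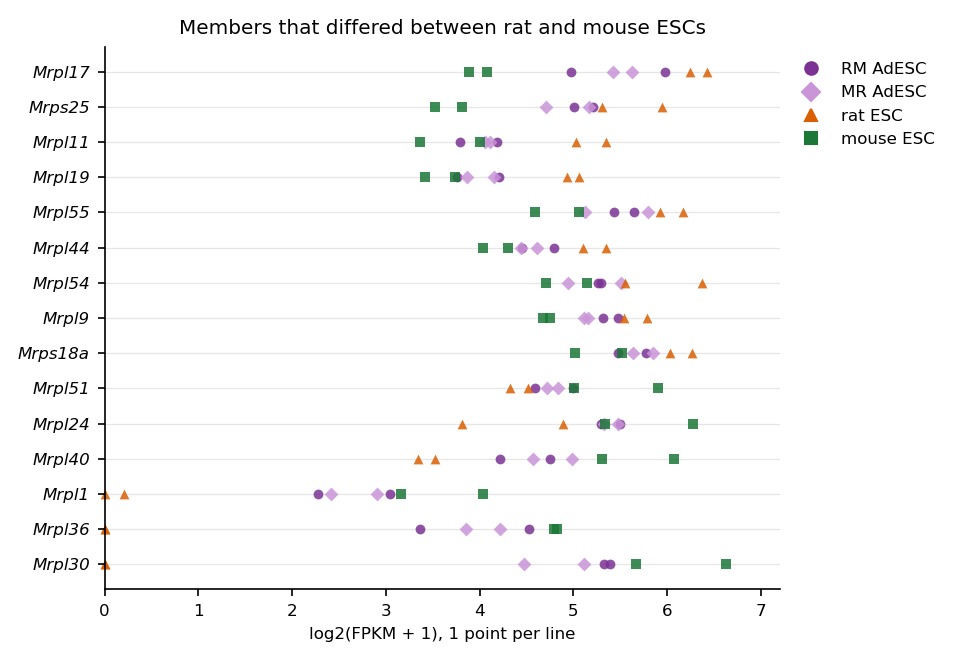
Values of the 15 members that differed between rat and mouse ESCs, 1 point per bulk line, on a log2(FPKM + 1) axis and ordered by the rat-minus-mouse difference. For Mrpl17 the AdESC lines (30.5 to 61.97 FPKM) lie between the rat lines (75.02 and 84.8) and the mouse lines (13.8 and 15.9), and Mrpl30, Mrpl36 and Mrpl1 lie at or near 0 in rat lines only.

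Over the whole family, the AdESC mean lay between the rat and the mouse mean for 48 of 65 members (73.8%), beside 63.9% of the 8794 genes tested. Set against the mean of the parental means, the AdESC level was 0.887 in the median member, with quartiles of 0.813 and 0.969. Over all 8794 genes the median ratio was 0.925 with quartiles of 0.771 and 1.09, a description that carries no test. The ratio ran from 0.628 for Mrpl42 to 1.15 for Mrpl36. That of Mrpl36 rests on its rat value listed at 0, which may be a failed estimate, and its AdESC mean was 0.577 of the mouse mean. The next highest ratio was 1.08 for Mrpl2.

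RM and MR lines did not differ past the threshold in any member: limma called 0 of 65, 0 had an unadjusted p under 0.05, and 0% of all genes were called in either direction. The median log2 difference was -0.03 over members and -0.06 over all genes. The RM lines differed from each other: RM2-1 was below RM1-1 in 58 of 65 members (median log2 difference -0.43, against -0.23 over all genes). Between the MR lines, MR2-1 was above MR1-1 in 32 members and below it in 33 (median -0.02, against 0.15 over all genes). Among the AdESC lines, RM2-1 held the lowest value of 42 members and RM1-1 the highest value of 39. The members' median difference between RM and MR was 0.22 without RM2-1 and -0.27 without RM1-1.

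Of 45 other genes listed for mitochondrial translation, ribosome assembly and mitochondrial transcription, 38 were measured. In AdESCs against mouse ESCs, Tfam rose and Nsun4 fell. That is 2.63% of the 38 in each direction, beside 2.71% higher and 1.18% lower over all genes tested. Tfam, which packages mitochondrial DNA and starts its transcription, averaged 45.7 ± 14.0 FPKM in AdESC lines and 16.2 ± 4.84 FPKM in mouse lines (SD; log2 difference 1.42 ± 0.33, limma adjusted p = 0.0448). Nsun4, a methyltransferase of the mitochondrial ribosomal RNA, averaged 1.58 ± 0.388 FPKM in AdESC lines and 5.51 ± 0.340 FPKM in mouse lines (log2 difference -1.35 ± 0.30, limma adjusted p = 0.0407). It was listed at 0 in both rat lines, which may be a failed estimate, and the part of this in the AdESC value was not tested. The rat mean of Tfam was 88.98 FPKM. Of 43 cytosolic ribosomal protein genes tested in AdESCs against mouse ESCs, 7 were higher and 3 lower. These are 16.3% and 6.98%, beside the 2.71% and 1.18% of all genes.

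In single cells the family was lower after differentiation in most samples. The members took 0.842% to 1.19% of the summed FPKM of the sample mean in the 7 differentiated samples and 1.10% to 1.25% in the 4 AdESC samples. The share was lowest in RM2-1 testis (0.842%) and MR1-1 fibroblasts (0.875%). It was highest in RM1-1 neurons (1.19%) and RM1-1 EBs (1.13%), which lay within the range of the AdESC samples. Against the AdESC sample of its own line, RM2-1 testis had 55 of 65 members lower, MR1-1 fibroblasts 51, RM2-1 lung 49, RM1-1 EB 47 and MR2-1 EB 46. RM1-1 neurons and RM1-1 testis had 34 each, with median log2 differences of -0.03 and -0.05, where the other 5 samples had medians of -0.38 to -0.73. Genes at 1 FPKM or more per cell had medians of 4263 to 5303 over the differentiated samples and 4826 to 5537 over the AdESC samples, and their part in these shares was not tested.

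**Figure D3:**
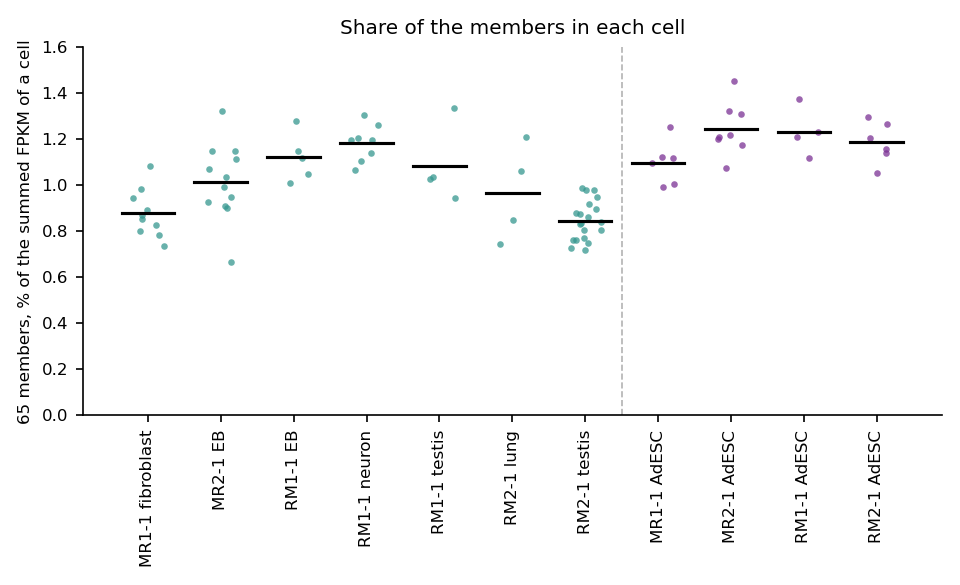
The summed FPKM of the 65 members as a percentage of the summed FPKM of all genes, 1 point per cell, with black bars at the mean over cells; differentiated samples stand left of the dashed line and AdESC samples right of it. RM2-1 testis cells lie between 0.717% and 0.987%, below every AdESC, of which the lowest is 0.993%.

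With each sample entered once, 6 members fell in differentiated samples (Mrps24, Mrps5, Mrpl1, Mrps23, Mrps18b and Mrpl37) and 1 rose (Mrps21). That is 9.23% lower and 1.54% higher, beside 8.57% lower and 7.37% higher over the 8421 genes tested, so the number called lower is near the background. The median log2 difference was -0.47 over members and 0.02 over all genes, and 50 of 65 members were negative. By subunit the median was -0.50 over 42 large-subunit members, with 2 lower, and -0.41 over 22 small-subunit members, with 4 lower and 1 higher. By origin it was -0.47 over the 43 members with a bacterial homologue and -0.41 over the 22 found only in mitochondria.

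**Figure D4:**
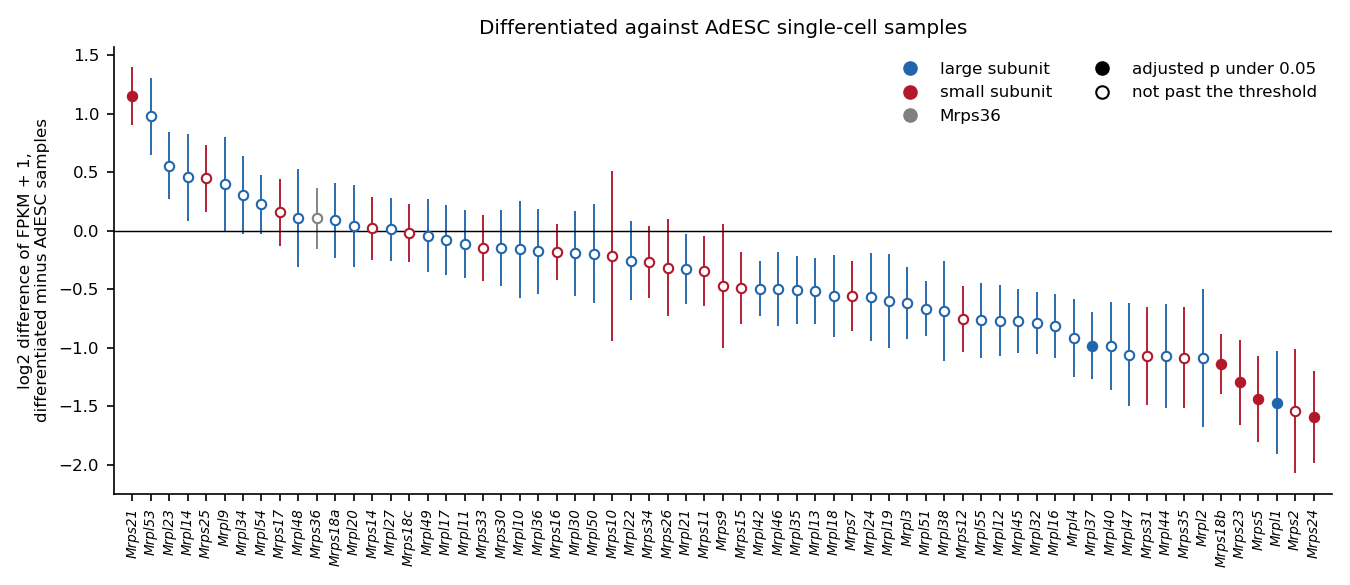
The log2 difference of FPKM + 1 between differentiated and AdESC samples for each member, with its standard error from limma, ordered by size; filled points passed an adjusted p of 0.05. Mrps21 (1.15) stands alone among the members that passed above 0, and the 6 filled points below 0 run from -0.98 (Mrpl37) to -1.59 (Mrps24).

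Mrps21 (bS21m, mouse chromosome 3, 95862634 to 95871519, minus strand) went against the family. Its sample means were 73.1 FPKM at the lowest (MR1-1 fibroblasts), 118 FPKM in the median and 158 FPKM at the highest (RM2-1 lung) over 7 differentiated samples. The AdESC samples had 48.4, 48.7, 63.2 and 51.6 FPKM in the lines MR1-1, MR2-1, RM1-1 and lastly RM2-1. Every differentiated sample lay above every AdESC sample (log2 difference 1.15 ± 0.25, limma adjusted p = 0.00558), and the call held with each sample left out in turn. In MR1-1 fibroblasts the mean rests on few cells: the median cell had 30.3 FPKM and the highest 263 FPKM. Mrps21 was among the 5 highest members in bulk too, where it had 82.6, 42.96, 70.8 and 55.7 FPKM in RM1-1, RM2-1, MR1-1 and MR2-1.

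Mrps18b (mouse chromosome 17, 35910379 to 35916389, minus strand) showed the reverse. Its differentiated samples had 71.5 FPKM at the lowest (RM1-1 EB), 108 FPKM in the median and 164 FPKM at the highest (RM1-1 testis). The AdESC samples had 251, 257, 245 and 235 FPKM, lines in the same order. The groups did not overlap (log2 difference -1.14 ± 0.26, limma adjusted p = 0.00726), and the call held with each sample left out. Its paralogues did not pass the threshold: Mrps18a averaged 90.2 ± 29.3 FPKM in differentiated samples and 83.3 ± 27.02 FPKM in AdESC samples, and Mrps18c 111 ± 20.1 FPKM in differentiated samples and 114 ± 30.99 FPKM in AdESC samples (SD, n = 7 and 4). The difference between the paralogues' changes was not tested.

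Mrps5 and Mrps24 (uS5m and uS3m), bacterial-type proteins at the messenger RNA entry of the small subunit, also fell. Mrps5 had 6.66 FPKM at the lowest (MR1-1 fibroblasts), 14.9 in the median and 20.7 FPKM at the highest (RM1-1 neurons) in differentiated samples, against 34.7, 46.9, 32.3 and 38.1 FPKM in the AdESC samples, again in that order (log2 difference -1.44 ± 0.37, limma adjusted p = 0.0149). Its groups did not overlap, which held for 9 members in this comparison. Mrps24 had 7.81, 11.2 and 27.5 FPKM at the lowest, median and highest, against 23.8, 33.6, 52.7 and 49.6 FPKM in the AdESC samples (-1.59 ± 0.39, adjusted p = 0.0121). Its highest differentiated sample, MR2-1 EB, lay above the lowest AdESC sample, and 15.4% of its exon bases in mouse are shared with Urgcp on the same strand.

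Mrps23, found only in mitochondria, averaged 29.03 ± 13.3 FPKM in differentiated samples and 68.6 ± 17.5 FPKM in AdESC samples (-1.30 ± 0.36, limma adjusted p = 0.0249). Mrpl37, a large-subunit protein found only in mitochondria, averaged 28.7 ± 6.64 FPKM in differentiated samples and 56.5 ± 6.16 FPKM in AdESC samples (-0.98 ± 0.29, adjusted p = 0.0295). Mrpl1 averaged 8.82 ± 4.63 FPKM in differentiated samples and 23.999 ± 6.43 FPKM in AdESC samples (-1.47 ± 0.44, adjusted p = 0.0351). For Mrpl37 and Mrpl1 all 7 differentiated samples lay below all 4 AdESC samples, whereas for Mrps23 the RM2-1 lung sample, at 51.3 FPKM, lay above the RM2-1 AdESC sample, at 46.01 FPKM.

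**Figure D5:**
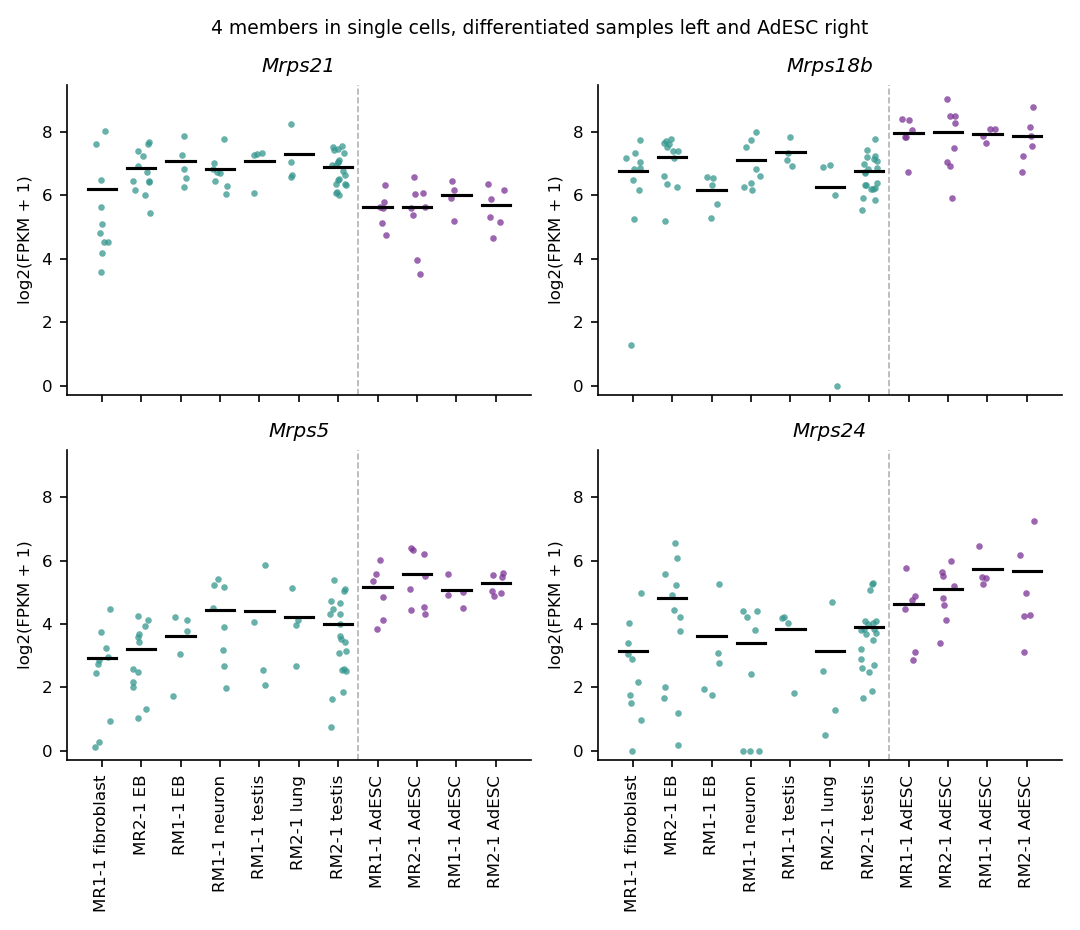
Log2(FPKM + 1) of Mrps21, Mrps18b, Mrps5 and Mrps24 in single cells, 1 point per cell; black bars mark the mean FPKM of a sample on the same scale, and a dashed line parts differentiated samples (left) from AdESC samples (right). The bars of Mrps21 stand at 73.1 to 158 FPKM left and 48.4 to 63.2 FPKM right, and those of Mrps18b at 71.5 to 164 FPKM left and 235 to 257 FPKM right.

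The count of calls moved with the samples and the model. With the cell line as a block, 13 members were lower and 1 higher, and with the mean of log2 values over cells 11 were lower and 1 higher. Leaving out RM1-1 neurons gave 11 calls, and leaving out 1 AdESC sample gave 3 (MR2-1 or RM1-1) or 4 (MR1-1 or RM2-1). Lost calls were Mrps24 without the RM1-1 or RM2-1 AdESC sample (adjusted p up to 0.0568), Mrps5 without that of MR2-1 (0.0604), Mrps23 without that of MR1-1, MR2-1 or RM1-1 (up to 0.0928), and Mrpl37 and Mrpl1 without each of the 4 in turn (up to 0.0892 and 0.114). Without RM1-1 testis and RM2-1 lung, the 2 samples in doubt from their markers, a setting chosen after the data were seen, 6 members were lower and 1 higher and the median was -0.42; Mrpl1 then had an adjusted p of 0.0519.

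Against the AdESC sample of their own line, 17 members were lower in all 7 differentiated samples and 3 were higher in all 7, namely Mrps21, Mrps25 and Mrpl14. These are 26.2% and 4.62% of members, beside 13.9% and 10.5% of the 8421 genes tested, given as a description. The 17 included Mrpl12, which averaged 91.5 ± 31.6 FPKM in differentiated samples and 149 ± 25.9 FPKM in AdESC samples without passing the threshold (log2 difference -0.77 ± 0.30, limma adjusted p = 0.0951). Mrps30 averaged 19.996 ± 6.15 FPKM in differentiated samples and 21.5 ± 1.56 FPKM in AdESC samples. Mrps36 averaged 49.2 ± 9.24 FPKM in differentiated samples and 45.4 ± 6.67 FPKM in AdESC samples, and neither passed. The 3 samples of RM1-1 besides its AdESCs share 1 AdESC sample, as do those of RM2-1, so these counts are not independent.

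EBs and testis, the types with 2 samples each, were also set apart against the same 4 AdESC samples. In EBs 1 member was higher (1.54%) and 4 lower (6.15%), beside 2.77% of all genes higher and 3.87% lower. Mrps21 had 115 and 134 FPKM in MR2-1 and RM1-1 EBs (log2 difference 1.22, limma adjusted p = 0.0313). The lower members were all of the small subunit. The median log2 difference in EBs was -0.29 over 42 large-subunit members and -0.38 over 22 small-subunit members. Mrps5 had 8.34 and 11.3 FPKM in those EBs (-1.85, adjusted p = 0.0202) and Mrps2, at the messenger RNA exit side, 14.0 and 8.75 FPKM, against 35.3 to 51.3 FPKM in AdESC samples (-1.83, adjusted p = 0.0302). Mrps23 (-1.71, adjusted p = 0.0383) and Mrps18b (-1.25, adjusted p = 0.0398) completed the list.

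In testis samples 1 member was higher (1.54%) and 2 lower (3.08%), beside 6.19% and 6.12% of all genes, so neither share is above the background. Mrps21 had 135 and 118 FPKM in RM1-1 and RM2-1 testis (1.24, limma adjusted p = 0.0176). Mrps31 had 13.8 and 8.62 FPKM, against 27.1 to 40.7 FPKM in AdESC samples (-1.43, adjusted p = 0.0466), and Mrps35 14.5 and 12.7 FPKM, against 31.6 to 62.4 FPKM (-1.55, adjusted p = 0.0485). Both lower members are small-subunit proteins found only in mitochondria, but 2 calls show no pattern by subunit or origin. The median log2 difference in testis was -0.34 over 42 large-subunit members and -0.25 over 22 small-subunit members. Between testis and EB samples limma called 0 members (1, Mrps35, had an unadjusted p under 0.05), beside 0.0608% of all genes in each direction.

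These calls rest on few samples. With the cell line as a block no EB call and 1 testis call was left. Leaving out any 1 AdESC sample left no EB call, leaving out RM1-1 EB left 2 and MR2-1 EB 3. For testis none was left without the MR1-1 or MR2-1 AdESC sample, and 1 without the RM1-1 or RM2-1 AdESC sample or RM2-1 testis. There were 5 without RM1-1 testis, the sample with 3 of 4 glial markers, 6 without RM1-1 EB and 7 without MR2-1 EB. The members' median in testis was -0.28 with both samples, -0.63 without RM1-1 testis and -0.04 without RM2-1 testis.

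From cell to cell the family was detected widely. Of the 65 members 22 were listed at 0 in no cell, and 6.81% of member values in differentiated cells and 1.22% in AdESCs were under 1 FPKM. No differentiated cell was under 1 FPKM for 18 members, and no AdESC for 51. The zeros were most frequent for Mrpl1 and Mrpl38, with 11 of 87 cells (12.6%), for Mrpl44 and Mrps2 with 8, and for Mrps10, Mrps26 and Mrps31 with 7. Mrpl1 was under 1 FPKM in 38.1% of differentiated cells and 4.17% of AdESCs, and Mrps2 in 30.2% of differentiated cells and 0% of AdESCs. Cells are not replicates and their depths are unknown, so these shares carry no test. MR1-1 fibroblasts had a median of 9 members under 1 FPKM per cell, more than any other sample, and also the fewest genes at 1 FPKM (median 4263).

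The 2 assays ordered the members only loosely alike. Within a line, levels in AdESC single cells and in the bulk library had Spearman's rho of 0.432 (MR2-1) to 0.555 (MR1-1) over 65 members, a description across genes that share their libraries. From 49 to 55 of the 65 members were higher in cells than in bulk in each line, by a median of 0.65 to 1.10 on the log2 scale. Mrps18b averaged 247 ± 9.52 FPKM in AdESC single cells and 85.1 ± 13.1 FPKM in the bulk AdESC libraries, in tables that were normalized separately. Mrps21 averaged 52.97 ± 6.99 FPKM in those cells and 63.02 ± 17.3 FPKM in those libraries (SD, n = 4 each).

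Of the 37 other genes of mitochondrial gene expression tested, 3 fell (8.11%) and 1 rose (2.7%) in differentiated samples. Over all genes 8.57% were lower and 7.37% higher, so the share called lower is near the background. The median log2 difference was -0.81 over the 37 genes, with 31 negative. The median was -0.21 over the 7 mitochondrial ribosomal proteins under another name, -0.83 over 8 translation factors, -0.85 over 14 genes of assembly and ribosomal RNA, and -1.02 over 8 genes of mitochondrial transcription and messenger RNA. Chchd1 (mS37), a further small-subunit protein, was the one that rose, with 104 ± 32.2 FPKM in differentiated samples and 44.7 ± 10.4 FPKM in AdESC samples (1.17 ± 0.29, limma adjusted p = 0.0136). Ptcd3 (mS39) fell, with 51.2 ± 15.2 FPKM in differentiated samples and 108 ± 26.7 FPKM in AdESC samples (-1.08 ± 0.28, adjusted p = 0.0180). Tfam fell as well, to 22.9 ± 9.90 FPKM in differentiated samples, against 74.3 ± 11.4 FPKM in AdESC samples (-1.79 ± 0.40, adjusted p = 0.00712). Nrf1, a nuclear regulator of genes for mitochondrial proteins, averaged 10.5 ± 10.6 FPKM in differentiated samples and 31.4 ± 5.82 FPKM in AdESC samples (-1.99 ± 0.60, adjusted p = 0.0359). Cytosolic ribosomal protein genes had a median of -0.31 over 43 genes, with 40 negative and 4 called lower (9.3%, also near the background). Nuclear-encoded respiratory subunits had a median of 0.10 over 65 genes, with 39 positive and 1 called lower (1.54%). No test compared these groups with each other.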

How the data were processed

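The authors deposited 1 table of 8 bulk libraries and 1 of 87 single cells, both holding FPKM per gene. Neither table states the unit, which was taken from the tool named in the submitters' processing notes, where FastQC is given at version 0.10.1, TopHat2 at 2.0.10, Cufflinks at 2.1.1, and the genome builds as mm10 and rn5. Per the labels' protocols, RNA was isolated with Trizol and libraries were made with a TruSeq kit. Both tables hold 13926 genes with the same homologue numbers. The members and gene lists were chosen with earlier results of these data known. Summed FPKM ran from 312695 to 377664 in bulk libraries and from 213045 to 411555 in cells. No pair of cell columns was identical.

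Cells of a sample were averaged. The scale was log2(FPKM + 1) and the test limma (version 3.58.1, R 4.3.3), its prior variance following the mean level. Genes averaging under 1 FPKM in a fit were left out, which removed none of the 65 members. The Benjamini-Hochberg adjustment covered every gene tested, and 0.05 was the threshold. A log2 difference on this scale understates changes of low genes. The script was tested on simulated data. Bulk groups were AdESC, rat and mouse, with RM and MR apart for their own comparison. Members called were named, at most the 10 with the largest differences in a comparison, with the 5 highest and 5 lowest in bulk. Also named were those listed at 0 in both lines of a species and those at 0 in the largest shares of cells. The Mrps18 paralogues, Mrps30, Mrps36 and Mrpl12 were named too, and other names were chosen after their values were seen. Differentiated and AdESC samples of the same cell line were treated as paired in the blocked fit, although their deviations from the group means hardly correlated (r from -0.0150 to 0.0356). Alternatives were another pseudocount (0.1), no filter, upper-quartile scaling, no trend, separate RM and MR groups, the block, means of log2 values and leaving out each library; leaving out RM1-1 testis and RM2-1 lung together was added after the data were seen. Gene positions and shared exons are from GENCODE vM21 (GRCm38), which matched all 65 members by symbol. Subunit and origin classes follow the structural nomenclature. Figures were drawn with matplotlib 3.10.9.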

Additional observations from a re-analysis of the deposited data

Results flagged for a closer look

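Among 33 groups of 4 or 7 samples examined for the named members and for the members' share of the summed FPKM, 1 had a sample far from the others; chance alone sets apart about 1 group in 20. Mrps24 stood at 27.5 FPKM in MR2-1 EB cells, where the other 6 differentiated samples had 7.81 to 14.0 FPKM. Of the 12 cells in that sample the lowest had 0.145 FPKM, the median 19.2 FPKM and the highest 93.3 FPKM. Without that sample the log2 difference of Mrps24 between differentiated and AdESC samples was -1.78.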

How the results depend on the processing

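Of 33 named member differences, 0 changed sign under any alternative. All 33 were picked for passing the threshold in the same libraries, so a kept sign was likely beforehand. With a pseudocount of 0.1 all 33 kept their call, and without the variance trend all 25 tried did; upper-quartile scaling ended 3 calls, no filter 4, separate RM and MR groups 5 of 18, the mean of log2 values 4 of 15 and the cell-line block 7 of 15. Members called against mouse ESCs were 0 with RM and MR separate, and against rat ESCs 3. In differentiated samples they were 11 without a filter, 14 with the replicate block (cell line) and 12 with the mean of log2 values. For EBs they were 3 without a filter and 0 with that block; for testis 1 with that block and 5 with the mean of log2 values. Leaving out 1 library in turn gave 0 to 2 calls (AdESC against mouse), 3 to 7 (AdESC against rat), 7 to 16 (rat against mouse), 0 to 0 (RM against MR), 3 to 11 (differentiated), 0 to 6 (EB) and 0 to 7 (testis); a group left with 1 sample is assumed to vary like the others. The RM and MR lines share only the numbers 1 and 2 (r = 0.553 between the deviations of number 1), and with that number as a replicate block 0 members were called. Causes were not tested. Depth is unknown, and 2 lines per parental species limit every call.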
